A study of Mus musculus with 9 samples.

Results

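Chronic unpredictable stress (CUS) was compared with no stress in the medial prefrontal cortex (mPFC) of mice, by polyadenylated RNA sequencing of bulk tissue. The members of the comparison are the 3 libraries labelled CUS model and the 3 labelled control, which are 6 of the 9 libraries of the series, and the genes that reached 0.5 FPKM in 3 or more of the 9, which are 14013 of 35125 rows with a gene symbol. FPKM is the number of fragments scaled to transcript length and to the mapped fragments of the library, a level that can be compared between genes. The control libraries are labelled as no stress and the CUS libraries as stress. Both carry the terms 4 week and week 8, whose meaning the labels do not give, and neither strain, sex, age nor the stressors are stated there. The other 3 libraries, a running model labelled as exercise, entered the gene filter and the estimate of the spread, and a few of their levels are given beside the others. Whether each library is from its own animal is not stated, so the spread behind the p-values may be technical in part.

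Chronic unpredictable stress exposes an animal to changing mild stressors and is used to model features of depression. The mPFC takes part in the control of stress responses and of mood. Neurons that fire switch on immediate early genes, which encode transcription factors such as Fos and Egr1 and effectors such as Arc, and do so through factors that include CREB, a protein that binds the cyclic AMP response element. Adrenal glucocorticoids act through the receptors Nr3c1 and Nr3c2, and the activated receptors bind glucocorticoid response elements near genes such as Sgk1, Tsc22d3 and Fkbp5.

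FPKM values summed to between 377545 and 423257 in the 6 libraries, with the highest sum in CUS replicate 3, and its mean Pearson r with the other libraries across genes was 0.987, against 0.990 to 0.993 for the rest. Slc17a7 and the other cortical layer and excitatory neuron markers were all among the tested genes (22 of 22), and their summed level was between 1226 and 1346 FPKM. Markers of other tissues differed between libraries. The 14 choroid plexus markers summed to 219.3 FPKM in control replicate 3 and to between 8.21 and 34.16 in the other 5 libraries, and 11 of them were highest in control replicate 3. The 18 meningeal and collagen markers summed to 1654 FPKM in CUS replicate 3, to 533.7 in control replicate 3 and to between 799.6 and 979.3 in the other 4. The 20 striatal markers summed to 323.4 FPKM in control replicate 2 and to between 277.4 and 293.9 in the rest. The part of such tissue in the results below was not tested. In bulk tissue, fewer cells of a type and less RNA per cell cannot be told apart.

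Only 1 of 14013 genes (0.00714%) was called, at an adjusted p under 0.05 by limma with Benjamini-Hochberg adjustment. This was Gm36327, a predicted gene on chromosome 6 (47675582 to 47678797 in GRCm38.p6). Its level was 0.79, 0.89 and 0.90 FPKM in the controls, and it was listed at 0 in all 3 CUS libraries (limma adjusted p = 0.003). It was also listed at 0 in the 3 running libraries, so it passed the filter only through the group in which it is high, and nothing is supported with its call. A listed 0 can be a failed estimate, so no fold is given.

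Every other gene named here failed the adjusted threshold. The 2057 uncalled genes at an unadjusted p under 0.05 had limma adjusted p-values between 0.106 and 0.339, and their values are given as a description. Of all genes, 14.7% had an unadjusted p under 0.05, with 1247 higher in CUS (8.9%) and 811 lower (5.79%). For 19.7% the CUS and control values were fully apart, with 12.1% higher and 7.6% lower. The direction of this split depended on the scaling. After rescaling to TPM, 570 genes were higher and 1399 lower, and after median-ratio scaling 916 were higher and 1051 lower. TPM moved the median change over all genes by -0.06 on the log2 scale and median-ratio scaling by -0.02.

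Differences were small for most genes. All differences below are CUS minus control in log2(FPKM + 0.5), which understates the change of low genes. The median over all genes was 0.02, and the 5th and 95th percentiles were -0.29 and 0.25. Among the 12742 genes with a mean of at least 1 FPKM, 31 were at least 1.5-fold higher in CUS and 75 at least 1.5-fold lower.

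The direction of the difference varied with transcript length and with level. Of 562 genes whose longest transcript was under 1000 bases, 79.9% were above 0, with a median difference of 0.17. Of 822 genes at 8000 bases or more, 23% were above 0, with a median of -0.10. Without CUS replicate 3 these medians were 0.07 and -0.05. By level, 39.7% of genes under 1 FPKM and 74.5% of those at 100 FPKM or more were above 0, against 55.9% of all genes.

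**Figure D1:**
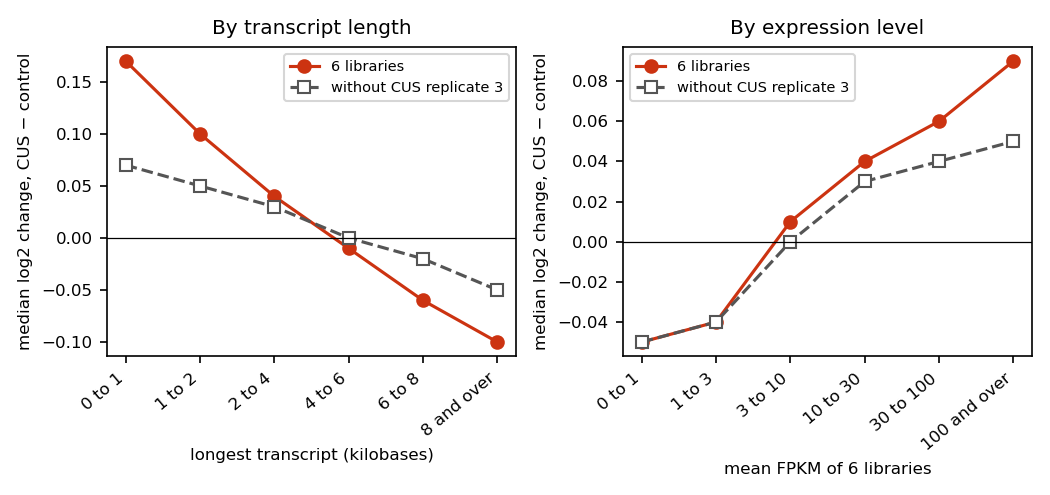
Median log2 difference (CUS minus control) of tested genes in bins of longest transcript length and of mean FPKM, with all 6 libraries and without CUS replicate 3. With all libraries the median runs from 0.17 under 1000 bases to -0.10 at 8000 bases or more, and from -0.05 under 1 FPKM to 0.09 at 100 FPKM or more.

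Of the genes with the largest differences, the higher ones come first. The rule that named them required groups without overlap, so their separation is given by the choice. Gkn3 had 1.63, 1.54 and 1.12 FPKM in the controls and 4.55, 2.40 and 2.40 in CUS, a difference of 0.86 (SE 0.229). Ackr1, an atypical chemokine receptor of venules, had 4.35, 6.65 and 7.93 FPKM in the controls and 8.05, 10.58 and 17.25 in CUS. Its difference was 0.84, and 0.55 without CUS replicate 3. In both genes every CUS value was above every control value.

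Hes5, a transcriptional repressor induced by Notch, had 8.14, 8.62 and 6.38 FPKM in the controls and 13.86, 10.82 and 14.02 in CUS, a difference of 0.71 (SE 0.12). Foxo6, a forkhead factor of the insulin pathway, had 5.96, 4.41 and 4.71 against 7.79, 7.45 and 8.63 FPKM. Serinc2 had 3.32, 2.80 and 2.48 against 4.14, 5.22 and 4.65 FPKM. The groups were apart in all 3 genes, and the smallest difference with any one library left out was 0.58, 0.54 and 0.54 in turn.

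Tmem40 had the smallest unadjusted p among the uncalled genes named here (2.07e-05), with 1.77, 2.18 and 1.95 FPKM in the controls and 3.37, 3.83 and 3.88 in CUS. Cks2, which binds cyclin-dependent kinases, differed by 0.75. Msln, a mesothelial surface protein, differed by 0.69, Plb1, a phospholipase, by 0.79, and Tmsb15b1, a thymosin, by 0.63, or 0.40 without control replicate 2. Nnmt, which methylates nicotinamide, differed by 0.66, and by 0.37 without CUS replicate 3. Each of these genes lay above the controls in all 3 CUS libraries.

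Zfp966 and Zfp967 are zinc finger genes of a cluster on chromosome 2 (175918283 to 175931100 and 176521004 to 176533821) and differed in opposite directions. Zfp966 had 5.00, 4.40 and 5.60 FPKM in the controls and 3.00, 0.29 and 1.84 in CUS. Zfp967 had 1.42, 1.3 and 0.00 FPKM in the controls and 1.69, 4.69 and 2.25 in CUS. Members of such a cluster share sequence, so the split of fragments between them is uncertain. The Zfp966 difference of -1.56 was -0.94 without CUS replicate 2, and the Zfp967 difference of 1.39 was 0.76 without control replicate 3. Fam205a3, a member of a multigene family, is uncertain in the same way (-0.97, and -0.57 without CUS replicate 3).

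Among the other lower genes, Plin4, a coat protein of lipid droplets and a glucocorticoid target, had 3.36, 1.88 and 4.95 FPKM in the controls and 0.64, 1.48 and 1.17 in CUS, a difference of -1.24 (SE 0.279). Des encodes desmin, a filament of muscle and of mural cells. Control values were 5.60, 1.18 and 0.98 FPKM, CUS values were 0.60, 0.66 and 0.43, and its difference of -1.23 was -0.57 without control replicate 1, the library with the high value.

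Zbed6 had 3.46, 2.88 and 2.57 FPKM in the controls and 1.82, 2.35 and 0.45 in CUS, and Ksr2, a scaffold of the MAP kinase pathway, had 3.46, 2.84 and 2.68 against 1.63, 2.12 and 0.73. CUS replicate 3 was the lowest library in both genes. Without it the differences of -0.90 and -0.87 were -0.42 and -0.56.

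**Figure D2:**
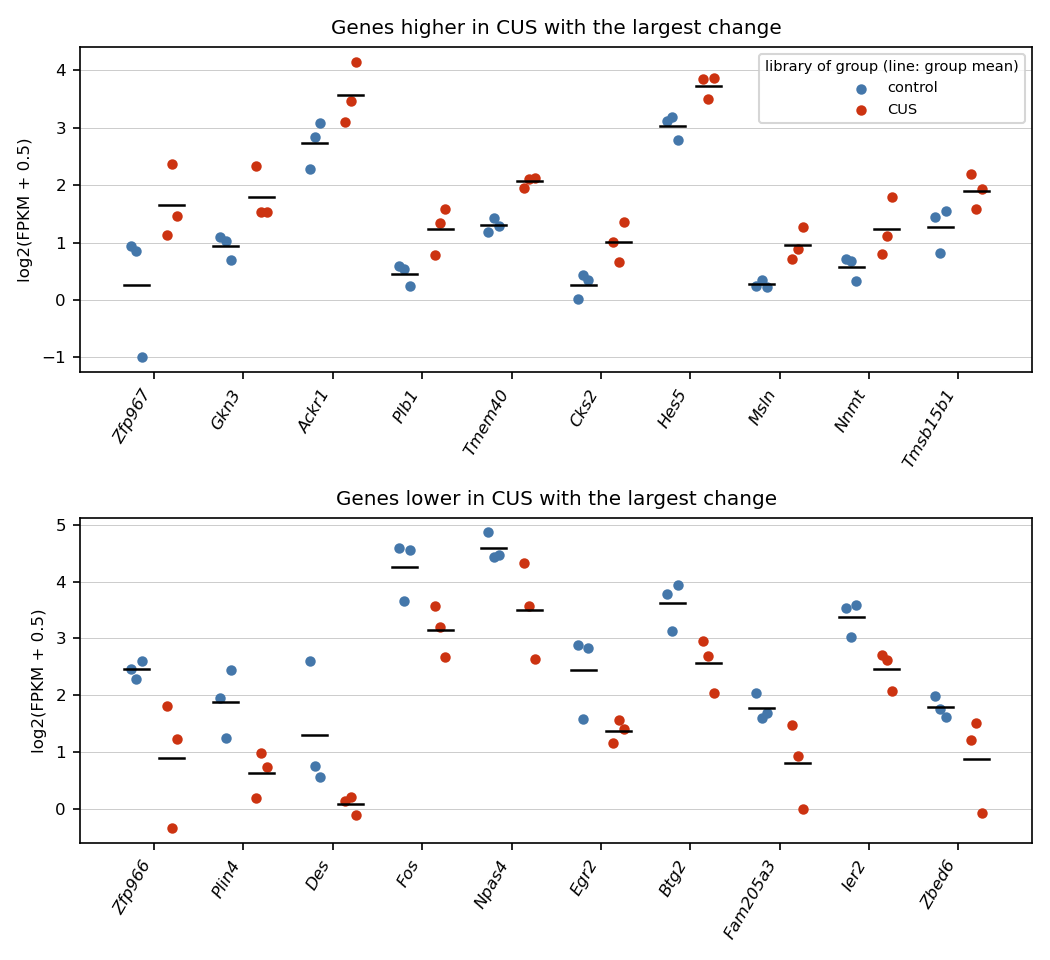
Level as log2(FPKM + 0.5) of the 10 higher and 10 lower genes with the largest log2 difference, with 1 point per library for control and CUS and a line at each group mean. The 3 CUS points lie on one side of the 3 control points in the 20 genes shown, which the rule for naming them required.

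Fos, Npas4, Egr2, Btg2 and Ier2, all of the activity response, were among the 12 lower genes. The promoters of Fos, Btg2, Dusp1 and Sgk1 are shown because they hold matches to elements known from these responses. Each is the 250 bases before a start in RefSeq (GRCm38.p6), read 5′ to 3′ on the gene's strand. For Sgk1 this start lies inside the gene (21882184 to 21999903), and the window was picked because it held the glucocorticoid element. Capitals mark every match, on either strand, to the cyclic AMP response element TGACGTCA (Btg2 and Dusp1), its short form TGACG (Fos and Dusp1), TATAAA (Fos), the E-box CACGTG (Dusp1 and Sgk1) and the full palindromic glucocorticoid response element (Sgk1). The windows are chr12:85473640-85473889 on the plus strand for Fos, chr1:134079156-134079405 on the minus strand for Btg2, chr17:26508473-26508722 on the minus strand for Dusp1 and chr10:21993640-21993889 on the plus strand for Sgk1.
Fos: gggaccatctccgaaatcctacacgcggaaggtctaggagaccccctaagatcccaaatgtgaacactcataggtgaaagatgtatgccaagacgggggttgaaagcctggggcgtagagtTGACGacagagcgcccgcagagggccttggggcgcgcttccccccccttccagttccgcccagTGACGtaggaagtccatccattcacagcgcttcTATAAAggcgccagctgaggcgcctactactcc
Btg2: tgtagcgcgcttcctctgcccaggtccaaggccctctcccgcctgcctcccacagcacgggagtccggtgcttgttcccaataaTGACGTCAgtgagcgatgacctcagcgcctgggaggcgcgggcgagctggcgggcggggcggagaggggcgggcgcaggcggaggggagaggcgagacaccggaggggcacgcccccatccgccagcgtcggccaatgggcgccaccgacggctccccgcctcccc
Dusp1: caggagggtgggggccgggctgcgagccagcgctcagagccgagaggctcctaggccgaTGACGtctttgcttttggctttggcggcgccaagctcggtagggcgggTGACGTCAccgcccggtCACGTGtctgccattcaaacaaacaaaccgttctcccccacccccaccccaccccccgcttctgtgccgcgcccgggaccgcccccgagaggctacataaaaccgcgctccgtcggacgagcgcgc
Sgk1: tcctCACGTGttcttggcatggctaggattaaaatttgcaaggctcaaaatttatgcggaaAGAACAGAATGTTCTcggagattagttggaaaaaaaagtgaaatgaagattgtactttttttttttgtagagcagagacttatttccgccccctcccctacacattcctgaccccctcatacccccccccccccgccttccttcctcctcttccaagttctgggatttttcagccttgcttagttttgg

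In Fos the short motif TGACG lies 129 and 66 bases before the start and TATAAA lies 33 before it. The full element begins 166 bases before the start in Btg2 and 143 in Dusp1, which also holds TGACG at 191. In Sgk1 the glucocorticoid element begins 189 bases before the internal start and the E-box 246. Both strands were searched in windows of 250 bases before to 50 after each start, and the short motif also counts inside the full one. TGACGTCA was in 6 of 49 activity-induced genes with a window (12.2%), in 3.45% of 11159 tested genes and in 1.79% of all 32851 windows. TGACG was in 59.2% of the activity-induced genes and in 34.2% of tested genes. Cytosolic ribosomal protein genes held TGACGTCA in 10.3% and TGACG in 53.4%, and mitochondrial ones held TGACG in 42.6%. The glucocorticoid element was in 1 of 21 glucocorticoid targets, Sgk1, and in 3 of all windows (0.00913%). TATAAA was in 13.6% and CACGTG in 7.15% of all windows.

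Activity-induced transcription factors were lower in CUS. All 6 tested AP-1 subunits were below 0, with a median of -0.54, where 44.1% of all genes were below 0. An unadjusted p under 0.05 was reached by Fos, Fosb, Fosl2 and Junb, all lower, against 5.79% of all genes. Fos had 23.59, 12.08 and 23.03 FPKM in the controls and 11.40, 8.75 and 5.86 in CUS, a difference of -1.12 (SE 0.254). Control replicate 2 held the low control value, and every CUS value was still below it, which the naming rule required. Fosb had 9.97, 6.52 and 9.37 against 4.85, 5.17 and 6.51 FPKM, so the closest values were 6.52 and 6.51. Junb overlapped, with 43.82 FPKM in control replicate 2 and 51.34 in CUS replicate 1, and so did Jund, which is less inducible.

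The Egr zinc finger factors and their Nab corepressors had the same direction, 6 of 6 below 0 with a median of -0.50. Egr1, Egr2, Egr3 and Egr4 were lower at an unadjusted p under 0.05, against 5.79% of all genes. Egr3 had 92.80, 70.66 and 81.02 FPKM in the controls and 38.59, 58.90 and 61.19 in CUS, a difference of -0.64. Egr2 had 6.89, 2.5 and 6.66 against 1.73, 2.47 and 2.15 FPKM, so that control replicate 2 was just above the highest CUS value. Egr1 overlapped, with 162.09, 96.63 and 134.93 FPKM in the controls and 82.82, 104.31 and 84.21 in CUS. Without CUS replicate 3, 4 of the 6 were below 0 and the same number as with it had an unadjusted p under 0.05.

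Of the 3 Nr4a orphan nuclear receptors, 2 were below 0 and 1 above. Nr4a1 had 66.29, 44.11 and 73.63 FPKM in the controls and 36.76, 39.59 and 38.48 in CUS, a difference of -0.64 (SE 0.148). Nr4a2 differed by -0.44, and by -0.29 without control replicate 3. For both genes the CUS values lay close together and the control values were spread. Nr4a3 overlapped, with 6.14, 5.53 and 6.82 FPKM in the controls and 5.67, 6.52 and 7.65 in CUS.

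A list of other early response genes, which holds the Ier, Btg, Gadd45 and Zfp36 families with Ccn1, Sik1, Csrnp1, Maff and Trib1, was below 0 in 15 of 18 cases, with a median of -0.48 and 10 at an unadjusted p under 0.05, all lower, where 5.79% of all genes were. Btg2, an antiproliferative cofactor, had 13.30, 8.24 and 14.79 FPKM in the controls and 7.27, 5.96 and 3.59 in CUS. Ier2 had 11.12, 7.61 and 11.58 against 6.04, 5.66 and 3.72 FPKM, and Gadd45g, of the DNA damage response family, 14.65, 12.30 and 16.10 against 10.79, 8.71 and 7.42. No values overlapped in these 3 genes, which the naming rule required of Btg2 and Ier2. Without control replicate 3 the median was -0.34 and 6 members had an unadjusted p under 0.05.

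Synaptic effectors of the activity response were more mixed. Of 18, 13 were below 0, with a median of -0.13, or -0.20 without CUS replicate 3. Members lower at an unadjusted p under 0.05 numbered 6, against 5.79% of all genes. Npas4, a transcription factor induced by calcium influx, had 28.67, 21.21 and 21.72 FPKM in the controls and 19.50, 11.38 and 5.71 in CUS. Its difference of -1.08 was -0.65 without CUS replicate 3. Arc, which drives AMPA receptor uptake, had 115.03, 49.29 and 121.55 against 42.31, 57.02 and 30.28 FPKM, so control replicate 2 lay below CUS replicate 2.

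Nptx2, a pentraxin that clusters AMPA receptors, had 47.64, 37.47 and 37.96 FPKM in the controls and 26.38, 32.43 and 37.20 in CUS. Ptgs2, the inducible cyclooxygenase, had 6.53, 5.48 and 6.19 against 4.02, 4.79 and 4.55. Bdnf, the growth factor, had 11.03, 9.39 and 9.38 against 8.23, 9.63 and 14.37 FPKM, and Homer1, a scaffold, had 34.23, 32.54 and 29.12 against 24.33, 31.35 and 39.77. For the last pair CUS replicate 3 was the highest of the 6 libraries and the groups overlapped.

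Inhibitors that feed back on MAP kinases were below 0 in 9 of 12, with a median of -0.24, and -0.13 without control replicate 3. Dusp1, a phosphatase of MAP kinases that is also a glucocorticoid target, had 35.49, 21.84 and 34.92 FPKM in the controls and 17.65, 19.53 and 14.58 in CUS, a difference of -0.79 (SE 0.166). Dusp5 had 5.48, 3.84 and 6.03 against 3.56, 2.88 and 3.51 FPKM. Dusp6 had values that overlapped.

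Across these genes control replicate 2 was often the lowest control. The mean deviation of the AP-1 list from the mean of each gene was -0.06 in control replicate 2, 0.40 and 0.41 in the other controls, and between -0.35 and -0.17 in CUS. Its striatal markers were the highest, and the part of this in the activity genes was not tested. Without control replicate 2, Dusp1, Egr2, Nr4a1 and Sgk1 were called (limma adjusted p = 0.0205, 0.0278, 0.0102 and 0.0416), and the AP-1 median was -0.72. That library was the lowest control in each of these called genes, so leaving it out widens their difference, and nothing is supported with these calls. In the running libraries, which are set beside the others as levels, Fos had 21.69, 24.26 and 24.27 FPKM. Running levels differed by gene. Npas4 had 15.83, 11.55 and 14.13 FPKM there and Gadd45g 9.15, 8.74 and 7.04, in both below every control value.

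**Figure D3:**
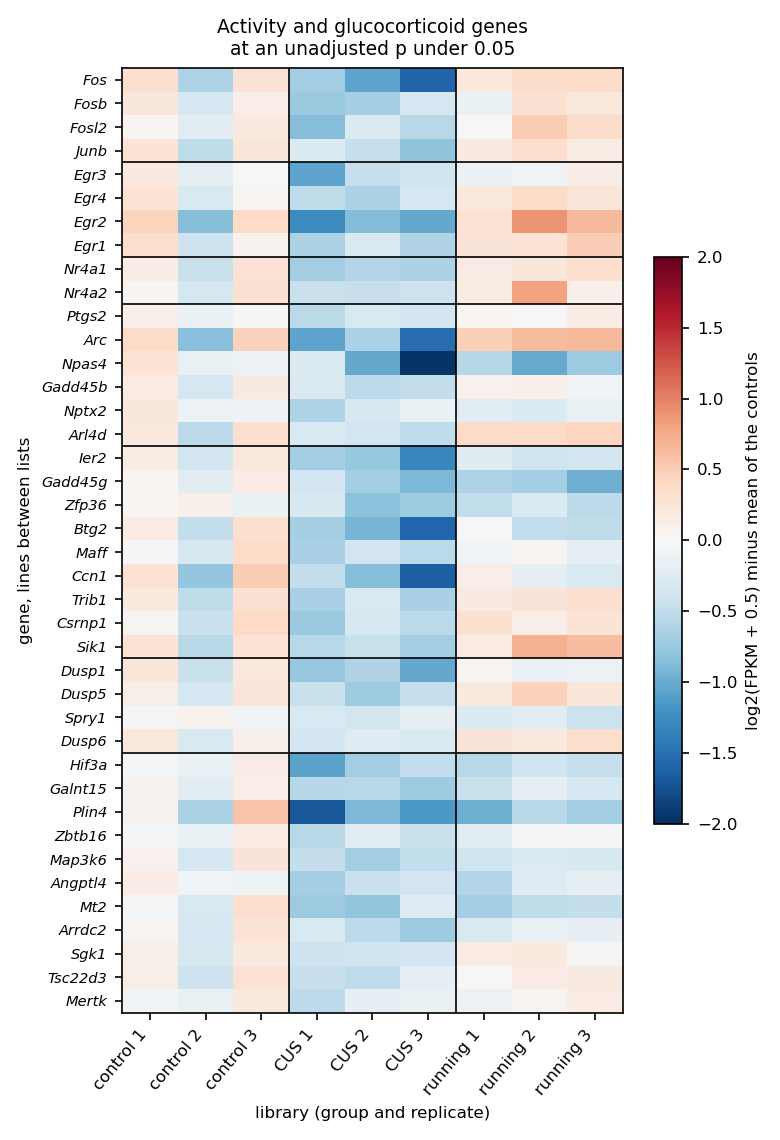
Level, as log2(FPKM + 0.5) minus the mean of the controls, of the activity-induced and glucocorticoid target genes with an unadjusted p under 0.05, in each of the 9 libraries, with lines between lists and groups. The genes were chosen for this difference, so the lower CUS columns are given by the choice, and within the controls replicate 2 is the lowest in most rows.

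Corticosteroid receptors and their cochaperones showed little difference, while genes that the receptors induce were lower. The 12 receptor and cochaperone genes had a median of -0.03, and 1 of them, Ptges3, had an unadjusted p under 0.05 by limma. Nr3c1, the glucocorticoid receptor, had 13.55, 14.62 and 12.77 FPKM in the controls and 15.14, 13.29 and 12.50 in CUS. Nr3c2, the mineralocorticoid receptor, had 5.37, 6.07 and 6.20 against 6.08, 5.65 and 4.50. The groups overlapped for both receptors. Ptges3, a cochaperone of Hsp90, differed by 0.20, and by 0.08 without CUS replicate 3.

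Of 24 glucocorticoid-induced targets, 23 were below 0, with a median of -0.36, and 12 were lower at an unadjusted p under 0.05, against 5.79% of all genes. The groups were apart for 10, all lower, against 7.6% of all genes. With any one library left out the median lay between -0.49 without control replicate 2 and -0.23 without control replicate 3. Hif3a, a hypoxia-inducible factor subunit, had 3.66, 3.39 and 4.25 FPKM in the controls and 1.53, 2.13 and 2.52 in CUS, a difference of -0.75 (SE 0.139). Galnt15, a glycosyltransferase, had 1.4, 1.07 and 1.48 against 0.72, 0.73 and 0.61 FPKM.

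Sgk1, the kinase whose promoter is shown above, had 29.20, 21.25 and 30.83 FPKM in the controls and 19.96, 20.16 and 20.48 in CUS, a difference of -0.40 (SE 0.116). The CUS values lay within 1 FPKM of each other and below each control. Map3k6, a stress-activated kinase, differed by -0.56, and Angptl4, a secreted inhibitor of lipoprotein lipase, by -0.51. Tsc22d3, known as GILZ, had 31.83, 21.70 and 35.88 against 21.03, 20.33 and 25.40 FPKM, with overlap. Fkbp5, a cochaperone that restrains the receptor, had 10.80, 8.26 and 13.23 against 7.35, 11.74 and 10.53 FPKM, and its sign depended on the libraries used.

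Metallothioneins bind zinc and copper and respond to glucocorticoids. Mt2 had 205.72, 169.80 and 265.62 FPKM in the controls and 126.54, 121.70 and 175.19 in CUS, a difference of -0.59. Mt1 differed by -0.24, by -0.08 without control replicate 3 and by -0.40 without CUS replicate 3. Of 13 Krueppel-like factors, 12 were below 0 with a median of -0.20, which was -0.12 without CUS replicate 3. Klf7 (-0.24) and Klf12 (-0.20, or -0.12 without CUS replicate 3) had the smallest p-values of that family.

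Clock genes differed by gene. Per2, a repressor of the circadian loop, had 9.70, 8.22 and 8.07 FPKM in the controls and 11.22, 12.28 and 11.20 in CUS, a difference of 0.40 (SE 0.0862). Npas2, a partner of Bmal1, had 19.13, 19.68 and 18.06 against 15.29, 16.53 and 16.42 FPKM. Every CUS value was above the controls for Per2 and below them for Npas2. Per1, which is also a glucocorticoid target, overlapped.

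Output factors of the clock had 8 of 13 members above 0. Those higher at an unadjusted p under 0.05 numbered 4, against 8.9% of all genes, and 0 after rescaling to TPM. Dbp, a PAR-domain activator, had 57.60, 55.07 and 54.54 FPKM in the controls and 69.81, 61.19 and 62.27 in CUS. Nr1d2 had 25.21, 25.08 and 24.54 against 26.90, 27.62 and 28.75. Bhlhe40 and Bhlhe41 differed by 0.25 and 0.21. The time of day of sampling is not given in the labels.

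Synaptic genes were mostly below 0, by small amounts. All 6 tested NMDA receptor subunits were below 0 (median -0.14, and -0.08 without CUS replicate 3). Their median transcript length was 6461 bases, and with the trend on length and GC content removed the median was -0.06, with 4 below 0. Grin2b had 19.82, 19.24 and 16.66 FPKM in the controls and 13.68, 17.59 and 12.10 in CUS, and Grin2a had 17.25, 17.09 and 15.33 against 13.28, 14.59 and 14.47. Grin1, the obligatory subunit, had 153.96, 156.25 and 151.20 against 152.52, 150.77 and 120.76 FPKM, with the low value in CUS replicate 3. The AMPA and kainate subunits (12) and metabotropic receptors (7) had 0 members at an unadjusted p under 0.05 by limma, and medians of -0.02 and -0.03.

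Of 22 active zone and vesicle fusion genes, 19 were below 0 with a median of -0.10. Those lower at an unadjusted p under 0.05 numbered 8, against 5.79% of all genes, and 3 without CUS replicate 3. Rims1, an active zone scaffold, had 39.52, 39.09 and 38.13 FPKM in the controls and 34.50, 31.31 and 31.48 in CUS. Of 20 postsynaptic scaffolds 19 were below 0, with a median of -0.09, and Shank1 had 130.78, 127.62 and 121.59 against 108.11, 122.94 and 92.74 FPKM. Median transcript lengths of these lists were 6339 and 6077 bases, where long transcripts were below 0 in general. With the trend on length and GC content removed in each library, the scaffolds had 10 members on each side of 0 and the active zone median was -0.05.

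Potassium channels of the voltage-gated families had 30 of 35 members below 0, with a median of -0.11, and -0.06 without CUS replicate 3. At an unadjusted p under 0.05, 8 were lower, against 5.79% of all genes, and 2 without that library. With the trend on length and GC content removed the median was -0.04, with 23 below 0 and 1 lower at that threshold. Kcng1, a modifying subunit, had the opposite direction, with 10.51, 9.88 and 9.09 FPKM in the controls, 11.79, 12.82 and 14.11 in CUS and a difference of 0.38 (SE 0.0796). Among GABA-A subunits (12) only Gabrb1 was at an unadjusted p under 0.05, with a difference of -0.19.

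Monoamine receptors differed one by one. Htr2a, the serotonin receptor of cortical pyramidal cells, had 8.22, 5.81 and 6.25 FPKM in the controls and 4.24, 5.19 and 3.50 in CUS, a difference of -0.59 (SE 0.183). Htr3a, an ion channel receptor of interneurons, had 4.39, 3.93 and 4.41 against 4.47, 6.31 and 5.75 FPKM. Htr4, which was below 1 FPKM in all 6 libraries, differed by -0.33. Htr2c overlapped. The groups were apart for Htr2a, Htr3a and Htr4.

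Among adrenergic receptors, Adra2c had 5.57, 5.54 and 5.03 FPKM in the controls and 6.36, 6.38 and 6.4 in CUS. Adrb1 had 13.70, 13.72 and 13.16 against 13.02, 11.64 and 9.99, and Adra1a differed by -0.25. The groups were apart for these 3 genes. Without CUS replicate 3 the Adrb1 and Adra1a differences were -0.13 and -0.14.

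In the list of interneuron neuropeptides, which also holds calcium-binding proteins, 9 of 18 were above 0. Grp, gastrin-releasing peptide, had 20.88, 20.58 and 20.30 FPKM in the controls and 24.66, 24.17 and 29.73 in CUS. Penk, the enkephalin precursor, had 35.48, 44.13 and 38.30 against 32.67, 20.45 and 32.73, a difference of -0.48 that was -0.26 without CUS replicate 2. Pvalb, the calcium-binding protein of fast-spiking cells, had 75.79, 33.95 and 44.21 against 35.68, 27.42 and 32.63 FPKM. Its difference of -0.60 was -0.28 without control replicate 1, the library with the high value. Crh, the stress peptide, overlapped. Penk is also expressed in striatum, whose markers were highest in control replicate 2, and the part of that tissue was not tested.

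Identity genes of cortical neurons differed little. Of 22 layer and excitatory markers 14 were above 0, with a median of 0.06, or 10 and -0.01 after rescaling to TPM. Neurod6 had 63.04, 59.76 and 54.10 FPKM in the controls and 68.64, 70.97 and 76.05 in CUS, and Pou3f1, a factor of upper layers and of layer V, had 12.27, 13.47 and 13.20 against 15.08, 17.13 and 16.56. The 16 genes of GABA synthesis and interneuron identity had 5 above 0 and a median of -0.09, or -0.01 without CUS replicate 3. Gad2, which makes GABA, had 28.75, 28.79 and 27.83 against 26.73, 25.67 and 24.72 FPKM. Erbb4, the neuregulin receptor of interneurons, differed by -0.20. The groups were apart for Neurod6, Pou3f1, Gad2 and Erbb4.

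Myelin genes had 25 of 27 members below 0, with a median of -0.38. Members lower at an unadjusted p under 0.05 numbered 11, against 5.79% of all genes. The groups were apart for 3, all lower, against 7.6% of all genes. Mobp had 31.54, 30.35 and 56.92 FPKM in the controls and 26.46, 20.67 and 16.74 in CUS. Mbp, myelin basic protein, had 387.03, 412.38 and 753.78 against 446.08, 311.98 and 289.37. Control replicate 3 held the highest value of 25 of the 27 genes. Without it the median was -0.17 and 4 members had an unadjusted p under 0.05, and without CUS replicate 1 the median was -0.58. Control replicate 3 also had the highest choroid plexus markers, whose part in the result was not tested.

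Of 14 choroid plexus genes, 2 passed the filter, and 0 were listed at 0 in all 6 libraries. Ttr, the thyroid hormone carrier, had 7.28, 5.65 and 212.18 FPKM in the controls and 8.10, 31.04 and 29.08 in CUS. Kl, which encodes klotho, had 0.77, 0.71 and 1.51 against 0.68, 0.89 and 0.76. The sign of both differences depended on control replicate 3.

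Precursor genes of the oligodendrocyte lineage had 12 of 16 below 0, with a median of -0.13 that was -0.06 without control replicate 3. Myrf, the factor that drives myelination, was counted in the myelin list and not among these 16. Control levels of Myrf were 4.64, 4.94 and 7.95 FPKM, the last in control replicate 3, against CUS levels of 3.88, 3.40 and 3.01. The Myrf difference of -0.66 was -0.43 without control replicate 3. Pdgfra, the precursor receptor, differed by -0.20, and Cspg4 by -0.47, or -0.24 without CUS replicate 3. Tnr, a matrix protein, differed by -0.29.

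Microglial genes tended to be higher, with 21 of 24 above 0 and a median of 0.11. At an unadjusted p under 0.05, 5 were higher, among them P2ry12 and P2ry13, against 8.9% of all genes. The groups were apart for 3 of the 24, all higher, against 12.1% of all genes. P2ry12, the ADP receptor of resting microglia, had 12.86, 13.59 and 13.58 FPKM in the controls and 18.23, 14.87 and 18.41 in CUS, a difference of 0.35. P2ry13 had 4.86, 5.12 and 4.86 against 6.12, 5.96 and 5.97. Neither gene overlapped. The list median was 0.07 without CUS replicate 3, 0.06 without control replicate 2 and 0.19 without CUS replicate 2. After rescaling to TPM 14 members were above 0 and 2 were higher at an unadjusted p under 0.05.

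Astrocyte genes had 16 of 22 below 0, with a median of -0.09. Members lower at an unadjusted p under 0.05 numbered 5, against 5.79% of all genes. Without control replicate 3, the library with the high choroid plexus and myelin markers, the median was -0.04 and 2 were lower at that threshold. Gfap, a filament of reactive astrocytes, had 32.20, 27.62 and 36.39 FPKM in the controls and 20.44, 20.13 and 30.46 in CUS. Slc4a4, a bicarbonate transporter, had 13.88, 14.58 and 14.18 against 12.99, 11.19 and 11.13 FPKM, and Slc1a2, the main glutamate transporter, had 210.25, 228.45 and 223.70 against 191.43, 189.25 and 188.32. Aqp4 overlapped. Slc4a4 and Slc1a2 had no overlap, while Gfap did.

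Vessel genes were lower in the endothelial list (16 of 22 below 0, median -0.17) and in the mural list (13 of 14, median -0.17). The endothelial median was -0.04 without CUS replicate 3 and -0.27 without CUS replicate 2. The mural median was -0.26 without CUS replicate 1, -0.12 without CUS replicate 2 and -0.13 without CUS replicate 3. Pecam1 had 7.26, 6.95 and 6.81 FPKM in the controls and 5.96, 5.44 and 3.86 in CUS. Slc2a1, the glucose transporter of the blood-brain barrier, had 48.97, 40.84 and 59.00 against 36.45, 41.05 and 34.64. Abcc9 and Notch3, mural genes, differed by -0.36 and -0.32, and by -0.23 and -0.20 without CUS replicate 3. Haemoglobin genes and Alas2 gave 5 of 5 above 0, and Hbb-bs had 193.34, 143.78 and 263.71 against 244.84, 314.03 and 237.73 FPKM. The haemoglobin genes are close copies, so values of single members are uncertain.

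Signalling genes differed one by one. In the Notch list of 23, Hes5, Dtx4, Hey1, Hes6 and Numb were the 5 higher at an unadjusted p under 0.05. Notch4, Notch3 and Dll4, which vessels express, were the 3 lower. Over all genes 8.9% were higher and 5.79% lower at that threshold. Dtx4 had 14.01, 13.19 and 12.50 FPKM in the controls and 15.83, 15.48 and 13.90 in CUS, and Notch4 had 2.00, 1.42 and 2.03 against 1.07, 1.52 and 1.22. The list median was 0.00. Without CUS replicate 3 the counts were 4 higher and 0 lower, and after rescaling to TPM 2 higher and 5 lower. Wnt7a had 1.95, 2.04 and 1.67 against 2.60, 2.90 and 2.75 FPKM, and Wnt7b had 18.50, 18.98 and 17.13 against 21.02, 21.31 and 20.99. Both Wnt ligands were higher in every CUS library.

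Ntf3, neurotrophin 3, had 0.93, 1.01 and 0.62 FPKM in the controls and 1.53, 1.2 and 1.67 in CUS, a difference of 0.54. Ntrk2, the receptor of Bdnf, had 97.50, 101.84 and 97.79 against 86.99, 90.67 and 81.41, and Gfra1, a receptor of GDNF, had 7.05, 7.17 and 7.72 against 6.25, 6.08 and 6.16. All 3 genes had groups that were apart. Vegfd, a growth factor of lymphatic vessels, had 3.73, 4.03 and 3.54 against 5.21, 5.24 and 4.91 FPKM, a difference of 0.40.

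Pde7b, which breaks down cyclic AMP, had 6.60, 6.69 and 6.64 FPKM in the controls and 3.97, 3.74 and 4.40 in CUS, a difference of -0.66 (SE 0.106). The controls lay within 0.1 FPKM of each other, and the CUS values were well below them. Pde10a, which is known for its high level in striatum, had 12.33, 16.18 and 12.87 against 9.74, 11.33 and 10.55 FPKM. H1f2, a linker histone, had 5.5, 8.01 and 8.31 against 4.26, 3.12 and 3.88 FPKM, while H1f10 had 42.01, 40.93 and 44.13 against 47.86, 46.06 and 55.42. The linker histones therefore did not share a direction.

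Genes of protein synthesis, respiration and protein turnover were higher in CUS by small amounts, and much of the size rested on CUS replicate 3. All 79 tested cytosolic ribosomal protein genes, of 84 listed, were above 0, where 55.9% of all genes were, with a median of 0.22. At an unadjusted p under 0.05 there were 27, all higher, against 8.9% of all genes. Without CUS replicate 3 the median was 0.09, with 69 above 0 and 4 at that threshold. With all libraries the groups were apart for 8 of the 79, all higher, against 12.1% of all genes. The mean deviation of the list was 0.39 in CUS replicate 3 and -0.01 and -0.05 in the other CUS libraries, against -0.16, -0.18 and 0.01 in the controls. Rpl39 had 102.68, 113.08 and 118.28 FPKM in the controls and 147.21, 117.11 and 168.78 in CUS.

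Mitochondrial ribosomal proteins were above 0 in 77 of 77 cases, with a median of 0.16, or 0.08 without CUS replicate 3. The groups did not overlap for 23, all higher, against 12.1% of all genes. Mrps6 had 25.25, 23.15 and 22.78 FPKM in the controls and 28.40, 31.00 and 34.17 in CUS, a difference of 0.38 (SE 0.0765). Complex I subunits were above 0 in 37 of 37, with a median of 0.20, or 0.11 without CUS replicate 3. Complexes II to V gave 41 of 41, with a median of 0.22, or 0.11. Ndufb4 had 179.57, 166.24 and 175.02 against 218.23, 190.33 and 249.03 FPKM, and Uqcrq had 59.42, 58.87 and 66.30 against 74.08, 68.15 and 94.57.

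Proteasome subunits were above 0 in 36 of 37, with a median of 0.16, or 0.09 without CUS replicate 3. Those higher at an unadjusted p under 0.05 numbered 17, against 8.9% of all genes, and 8 without that library. The groups were apart for 21, all higher, against 12.1% of all genes. Psmd13, a lid subunit, had 34.32, 33.92 and 33.94 FPKM in the controls and 38.45, 38.00 and 40.03 in CUS. Psmb4 had 94.57, 97.66 and 102.13 against 116.18, 109.40 and 136.80. Spliceosomal proteins had 31 of 38 above 0, with a median of 0.13 that was 0.03 without CUS replicate 3. Lsm10, a subunit of the U7 particle that processes histone transcripts, had 5.27, 5.24 and 5.65 against 8.05, 7.48 and 7.36 FPKM, a difference of 0.47 (SE 0.0799), and CUS replicate 3 was the lowest of the CUS libraries for it.

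Transcripts of these lists were short and abundant, with a median length of 1059 bases for cytosolic ribosomal proteins and 1046 for complex I, and short and abundant genes were above 0 in general. With the trend on length and GC content removed, the medians were 0.14 and 0.12, and 78 of 79 and 34 of 37 members were above 0. After rescaling to TPM they were 0.15 and 0.14.

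**Figure D4:**
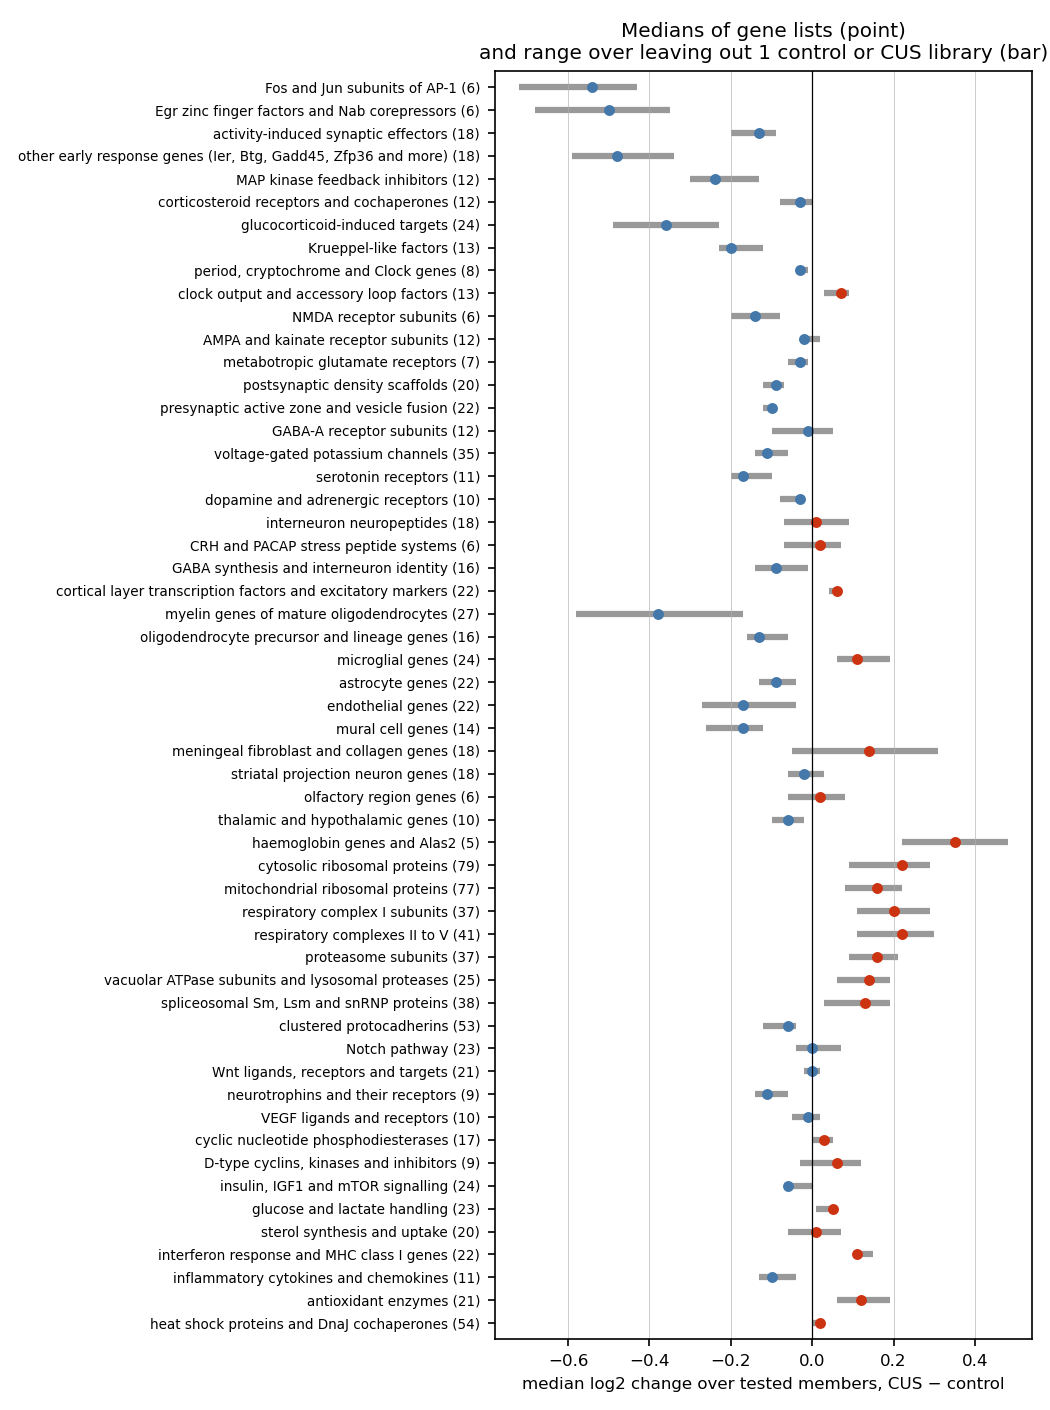
Median log2 difference (CUS minus control) of each gene list of 5 or more tested members, with their number (points, red above 0), and its range when 1 control or CUS library is left out (bars). The AP-1, Egr, early response, myelin and glucocorticoid target lists lie lowest, from -0.54 to -0.36. The list of haemoglobin genes and Alas2, with 5 tested members, lies highest at 0.35, and the ribosomal and respiratory lists lie between 0.16 and 0.22.

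**Figure D5:**
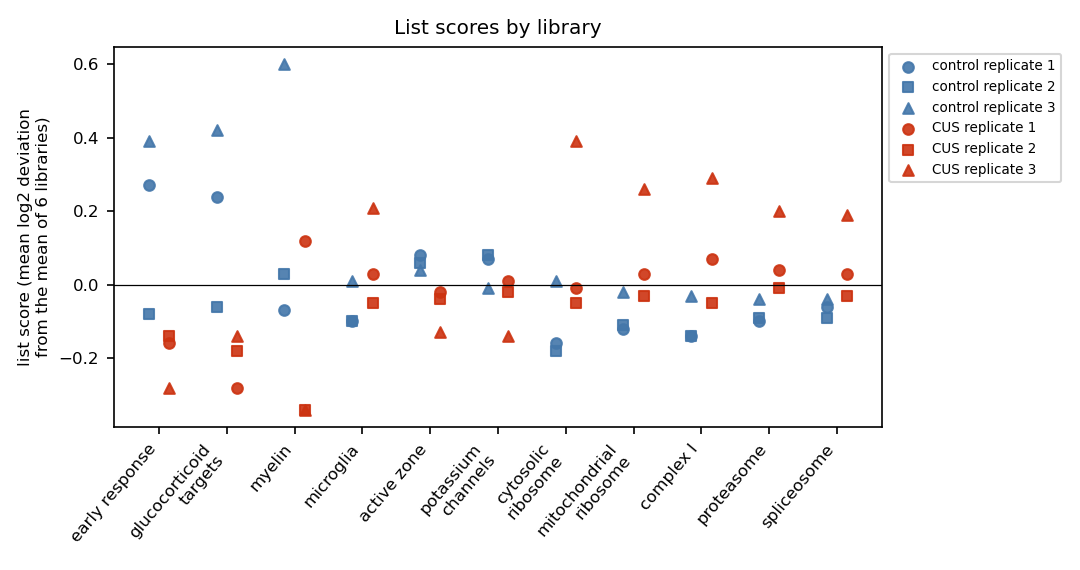
Score of selected lists in each control and CUS library, as the average deviation of its members from their own 6-library mean, in log2 units. CUS replicate 3 is the highest for the ribosomal, complex I, proteasome and spliceosome lists, control replicate 3 for myelin, and control replicate 2 is the lowest control for the early response and glucocorticoid target lists.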

How the data were processed

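The authors deposited 1 table of FPKM values, rounded to 2 decimals, for the 9 libraries. Bowtie2 2.2.5, RSEM 1.2.12 and DESeq2 1.4.5, with the build mm10, are named in the submitters' processing notes, and what each did is not given in the sources used here. Per the labels' protocols, polyadenylated RNA was captured, and no step is described that marks the strand. Read depth is unknown, so no counting interval is given.

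The table had 65389 rows, of which 30264 without a symbol were at 0. Genes with at least 0.5 FPKM in 3 of 9 libraries were tested as log2(FPKM + 0.5) with limma 3.58.1 in R 4.3.3, in 1 model of all 9 libraries with an intensity trend (residual degrees of freedom 6, prior 4.71 at the median). An exact test of 3 against 3 libraries cannot give a p under 0.1. Replicates were numbered in order of listing, and equal numbers pair nothing. Positions came from RefSeq (GRCm38.p6) for 13984 tested genes, and length and GC content from the longest GENCODE M21 transcript for 13766 (98.2%).

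The members, the 59 gene lists and the naming rule were chosen with earlier results of these data known. The rule names the 12 higher and 12 lower genes with the largest difference (mean of at least 1 FPKM, unadjusted p under 0.05, no overlap), the 2 members of each list with the smallest p, defining members, and called genes, passing over predicted, Y-linked and repeated symbols. A few genes picked by it are not reported here. Other named members were chosen after their values were seen. Lists are described by counts, with no set test, and some share members. Simulated data for this comparison had 14013 genes, with 50 changed at each fold. Of genes changed 1.3-fold 50% were called, of those at 1.5-fold 72%, at 2-fold 94% and at 3-fold 100%, with 6 false calls. Genes were drawn independently there, without the library-wide deviations seen in these data. The shares therefore need not hold here and do not tell how many changes of a given size went uncalled. The alternatives were other pseudocounts (0.1 and 1), filters, scalings, removal of length and GC trends, other variance settings and leaving out libraries. Leaving out both CUS replicate 3 and control replicate 3 was chosen after seeing the data.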

Additional observations from a re-analysis of the deposited data

How the results depend on the processing

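No paired analysis was possible because the labels give no replicate numbers that the control and CUS libraries share. The count of called genes was 1, and it was 0 with a filter at 1 FPKM or with the length and GC trend removed, where Gm36327 was not tested. It was 8 with library quality weights (Gm36327, Coa6, Hes5, Hif3a, Lsm10, Pde7b, Pigx and Tmem40). With one library left out it lay between 1 and 6, with 2 without control replicate 1 (Gm36327 and Gm2506) or CUS replicate 2 (Gm36327 and Coa6), and 6 without control replicate 2 (Gm36327, Arl4d, Dusp1, Egr2, Nr4a1 and Sgk1). Without both CUS replicate 3 and control replicate 3 it was 0. Genes at an unadjusted p under 0.05 numbered 2058, between 1246 without control replicate 1 and 3154 without CUS replicate 2 with one library left out, and 1312 without both. Of the 1426 without CUS replicate 3, 1085 were shared with the full set. Genes without overlap numbered 2758, up to 5430 without CUS replicate 2 and 5894 without both, where fewer libraries make overlap rarer. Of 3859 values of named genes under an alternative, 20 changed sign, in 7 genes. With one library left out, Ttr lay between -1.02 and 1.53, Kl between -0.33 and 0.04, Bdnf between -0.15 and 0.24, Homer1 between -0.20 and 0.14, Nr3c1 between -0.08 and 0.06 and Fkbp5 between -0.29 and 0.07. Without both libraries Ttr was 1.25, Kl 0.05, Bdnf -0.18, Homer1 -0.27, Nr3c1 0.01 and Nr3c2 0.03. With quality weights Bdnf was -0.17, Nr3c1 0.09 and Nr3c2 0.01, and with the length and GC trend removed Nr3c1 was 0.03. The cause of these changes was not tested.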

Other observations

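Antioxidant enzymes were above 0 in 19 of 21 cases, with a median log2 difference of 0.12, or 0.06 without CUS replicate 3. At an unadjusted p under 0.05, 5 were higher (Gsr, Prdx1, Prdx2, Sod1 and Txn1), against 8.9% of all genes, and 1 without that library. The groups were apart for 2, all higher, against 12.1% of all genes. Gsr, which regenerates glutathione, had 8.11, 9.28 and 8.54 FPKM in the controls and 10.30, 10.09 and 10.44 in CUS, and Prdx2, a peroxiredoxin, had 105.36, 109.26 and 116.39 against 127.35, 119.38 and 148.16. Interferon response and MHC class I genes were above 0 in 20 of 22, with 1 higher at an unadjusted p under 0.05, against 8.9% of all genes. Bst2, an interferon-induced tether of viruses, had 3.11, 2.67 and 2.35 against 3.74, 3.57 and 4.12 FPKM. Il33, an alarmin of oligodendrocytes and astrocytes, had 8.11, 9.05 and 12.45 against 8.27, 6.43 and 7.14, and its difference of -0.40 was -0.23 without control replicate 3.

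Clustered protocadherins, which give neurons surface identity, had 37 of 53 members below 0. Those lower at an unadjusted p under 0.05 numbered 10, against 5.79% of all genes, and 2 without CUS replicate 3. Clustered protocadherins share exons, so values of single members are uncertain. Vacuolar ATPase subunits and lysosomal proteases were above 0 in 23 of 25, with a median of 0.14 that was 0.06 without CUS replicate 3. Heat shock proteins and DnaJ cochaperones lay on both sides of 0 (30 above and 24 below, median 0.02), and Hspa1a had 4.88, 5.70 and 5.21 FPKM in the controls and 5.12, 5.35 and 4.66 in CUS. Fdps, an enzyme of sterol synthesis, had 44.50, 43.55 and 45.33 against 57.32, 51.52 and 55.37 FPKM, while the sterol list had a median of 0.01. Together the lists held 1137 tested genes, of which 291 had an unadjusted p under 0.05, against 14.7% of all tested genes. The lists were chosen with earlier results of these data known, so a higher share can be given by the choice.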
